A study of Mus musculus with 6 samples.

Results

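The 10 genes described here encode parts of the insulin-like growth factor (IGF) system: the ligand Igf1, the receptors Igf2r and Insr, the receptor substrate Irs1, and 6 IGF binding proteins, Igfbp2 to Igfbp7. They were picked by gene name, with earlier results of these data known, and all 10 were found among the 55421 genes of the deposited count table. All 10 also passed edgeR's filter on low counts, which kept 18140 genes. RNA was collected on day 4 of differentiation from 3 control libraries (cell line CUG200-ctrl) and 3 miR-322/-503 libraries (cell line CUG200-m). Both came from C2C12, mouse myoblasts that form myotubes by fusion once serum is lowered, and both were stably transfected with a GFP gene carrying expanded CUG repeats, as a model of myotonic dystrophy type 1 (DM1). The control line also carried the empty vector, and the other line carried the same vector with the miR-322/-503 cluster. Each group was 1 line, so a difference between the lines from transfection or selection and an effect of the microRNAs cannot be told apart. The differentiation medium of the study contained insulin in both groups. The methods of the study state 3 biological and 3 technical replicates for its assays unless noted otherwise, and its RNA-seq legend gives 3 replicates per group. Nothing in the labels says that the libraries of a group came from separate cultures. The p-values thus measure the spread between these libraries, which may be technical.

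IGF1 and IGF2 are secreted ligands that bind the IGF1 receptor, a tyrosine kinase close to the insulin receptor, and the signal passes through the IRS docking proteins to the PI3K, AKT and mTOR branch and to the RAS and MAP kinase branch. In skeletal muscle the pathway is known for promoting myoblast proliferation, differentiation and fiber growth. The binding proteins hold IGFs outside the cell, and can withhold them from the receptor or carry them to it, and proteases such as PAPP-A release the ligand by cutting them.

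The overexpressed microRNAs are shown because their seed, bases 2 to 8 counted from the 5′ end and printed in capitals, is what pairs with a 3′UTR. Both lie on the minus strand of chromosome X (GRCm38.p6, RefSeq), at chrX:53054306-53054327 and chrX:53054027-53054049.
mmu-miR-322-5p: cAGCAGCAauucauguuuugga
mmu-miR-503-5p: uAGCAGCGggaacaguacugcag
The seeds are identical over bases 2 to 7. In the longest annotated 3′UTR of each of the 10 genes (GENCODE M21, GRCm38), the 7-base match of miR-322-5p (TGCTGCT) was found in 5 genes and that of miR-503-5p (CGCTGCT) in 1 gene, searching the transcript strand alone. Across 13416 tested genes with a 3′UTR, 24.4% held the first match and 4.87% the second. The sites follow with the 9 bases on either side and the match in capitals, to show the letters on which these counts rest, and of the 3 sites of Insr only the first is printed.
Igf1, chr10:87930774-87930798, plus strand: aggatccttTGCTGCTtgagcaacc
Igf2r, chr17:12683351-12683375, minus strand: aaaaaccctTGCTGCTttagaccct
Insr, chr8:3154972-3154996, minus strand: accaatagcTGCTGCTttcatattt
Igfbp3, chr11:7207146-7207170, minus strand: gggcttcaaTGCTGCTggccctctg
Igfbp4, chr11:99052147-99052171, plus strand: tctgctctgTGCTGCTgcgtagagc
Igfbp5, chr1:72859643-72859667, minus strand: gagtctcccCGCTGCTcatatggag
The Igf1 site began at base 49 of a 3′UTR of 6308 bases. The other 3′UTRs with a 7-base match were 1304 (Igf2r), 4747 (Insr), 1435 (Igfbp3), 2813 (Igfbp4) and 4445 (Igfbp5) bases long. All of these are longer than the median given below, and the shares above are not adjusted for length. Irs1 had no 7-base match but 3 copies of the 6 bases that both seeds share (GCTGCT), which 45.2% of the tested genes held. Igfbp2, Igfbp6 and Igfbp7, whose 3′UTRs are 312, 209 and 240 bases long, held none, while the median 3′UTR of the tested genes was 1174 bases. Of the genes with a 7-base match, Igf1 and Igf2r were lower with miR-322/-503, Igfbp4 and Igfbp5 were higher, and Insr and Igfbp3 did not pass the test, as described in the following. Whether the matches have a part in these changes was not tested. A match in these letters is a description of the sequence, and binding was not measured.

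Total estimated counts lay between 73532084 and 92157388 per library. Differential expression was tested with edgeR's quasi-likelihood test over all 18140 genes, and a gene passed with an adjusted p under 0.05. Levels per library are given as CPM, estimated counts scaled to the TMM-normalized library total, and levels are compared between genes only in TPM, which is scaled by transcript length. Of 17 myoblast and myotube markers tested, 10 rose, 1 fell and 6 did not pass, where 13.2% of all tested genes rose and 15.5% fell. Ckm, the muscle creatine kinase, rose (log2 fold change 0.87, adjusted p = 9.6e-05), Myog, a myogenic transcription factor, fell (-0.74, adjusted p = 0.000665), and of the fusion genes Mymk was at -0.41 (adjusted p = 0.0796) while Mymx rose (0.37, adjusted p = 0.0196 in edgeR). The transcription factor genes Mef2c and Myod1 rose, by 3.61 and 0.37 on the log2 scale, and Mef2c was the most changed of the list. Mymx, Mef2c and Myod1 were named after their values were seen. Pax7, the satellite cell factor, had at most 12 estimated counts in a library. The defining adipocyte genes Adipoq, Lep, Cidec and Fabp4, the leukocyte genes Adgre1 and Cd3e, and the epithelial gene Krt5 had no counts in any library. Other genes of these lists did change: the adipocyte list held Lpl, which rose (log2 fold change 2.10), and Cebpa, which fell (-1.002), the endothelial list held Tek, which rose (1.90), and the bone and cartilage list held Alpl, which fell (-2.76, edgeR adjusted p = 0.0135), and Sox9, which rose (0.30, edgeR adjusted p = 0.0254). These 5 were named after their values were seen, and their mean CPM in the control and with miR-322/-503 was 3.53 and 15.2 for Lpl, 6.84 and 3.42 for Cebpa, 1.13 and 4.201 for Tek, 1.60 and 0.236 for Alpl, and 58.3 and 72.0 for Sox9. The summed markers of adipocytes stood at 12.98 to 15.01 TPM in the control and 16.2 to 19.4 TPM with miR-322/-503, those of bone and cartilage cells at 55.1 to 56.2 and 56.5 to 65.8 TPM, those of endothelium at 0.573 to 0.835 and 1.61 to 2.47 TPM, and those of leukocytes at 3.12 to 5.34 and 5.25 to 6.30 TPM. Summed epithelial markers reached at most 0.692 TPM. The part of these differences, and of the myogenic markers, in the results below was not tested. In such bulk libraries, fewer cells of a type and less RNA per cell cannot be told apart.

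Of the 10 IGF system genes, 5 rose with miR-322/-503 (Irs1, Igfbp2, Igfbp4, Igfbp5 and Igfbp6), 3 fell (Igf1, Igf2r and Igfbp7), and Insr and Igfbp3 did not pass the test. Of all tested genes, 28.8% passed, 13.2% upward and 15.5% downward. Beyond a log2 fold change of 1 in either direction, the cut-off of the study, were 3 genes that rose (Igfbp2, Igfbp4 and Igfbp5) and 1 that fell (Igf1), where 4.59% of all tested genes were called higher and 5.29% lower, 9.87% in all. The CPM ranges of the groups did not overlap for 8 of the 10 genes, against 45.1% of all tested genes. The median log2 fold change of the 10 genes was 0.25, beside -0.01 over all tested genes. Since the 10 genes were chosen with earlier results of these data known, these counts are a description and not a test of the set. Each of the 10 had at least 576 estimated counts in every library, while all tested genes include some with far fewer.

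**Figure D1:**
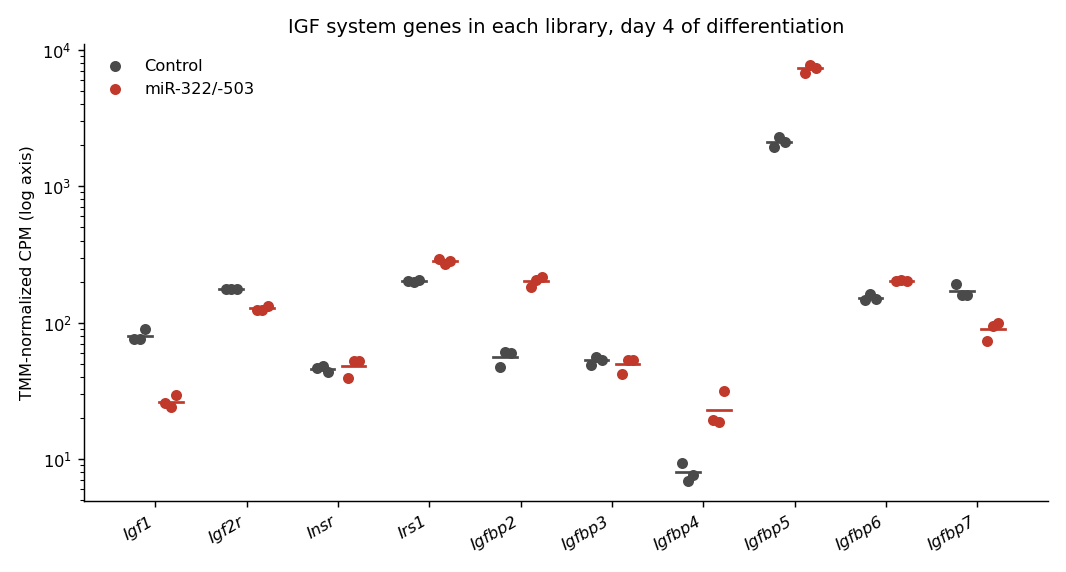
TMM-normalized CPM (log axis) of the 10 IGF system genes in each library, with 3 control (gray) and 3 miR-322/-503 (red) libraries per gene and a bar at the arithmetic mean. The groups are separate for 8 genes and overlap for Insr and Igfbp3. CPM is not scaled by transcript length, so the plot compares groups within a gene, not genes with each other.

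Igf1, the ligand, lies on chromosome 10 of GRCm38 from 87858265 to 87937042. It stood at 75.3, 76.1 and 90.1 CPM in the control libraries and at 25.7, 24.2 and 29.4 CPM in the miR-322/-503 libraries. The highest miR-322/-503 library was thus far below the lowest control library. The level fell to 0.329 times that of the control, a log2 fold change of -1.61 (SE 0.10, edgeR adjusted p = 3.46e-05). The second ligand, Igf2, fell as well. It stood at 19.2, 21.7 and 12.9 CPM in the control and at 3.40, 3.95 and 4.19 CPM with miR-322/-503, a log2 fold change of -2.22 (SE 0.20, adjusted p = 0.000198). Igf2bp2, an RNA binding protein named for its binding to Igf2 mRNA, rose from 8.83 ± 2.47 to 27.3 ± 2.79 CPM (SD, n = 3, edgeR adjusted p = 0.00109), while Igf2bp3 was at 0.431 and 0.782 CPM (adjusted p = 0.23 in edgeR) and Igf2bp1 was too low to be tested.

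Among the receptors, Igf2r, the mannose 6-phosphate receptor that takes up Igf2 for degradation in lysosomes (chr17:12682406-12769664), fell by a small and even amount. It stood at 175, 177 and 176 CPM in the control and at 125, 124 and 133 CPM with miR-322/-503 (log2 fold change -0.47, SE 0.06, adjusted p = 0.000696 in edgeR). The SD was 1.06 CPM over the control libraries and 5.31 CPM over the miR-322/-503 libraries (n = 3 each), and the groups were far apart on that scale. The antisense transcript Airn overlaps the gene body of Igf2r but none of its exons. Airn had at most 854 estimated counts, against at least 9282 for Igf2r, and its log2 fold change was 0.35 (adjusted p = 0.0515 in edgeR).

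Insr, the insulin receptor (chr8:3122061-3279617), stood at 46.2, 47.8 and 43.8 CPM in the control and at 39.3, 52.5 and 52.7 CPM with miR-322/-503. The miR-322/-503 libraries lay on both sides of the control, with replicate 1 below and the others above all control libraries. In TPM the groups did not overlap, with 10.7, 10.6 and 9.995 TPM in the control and 13.3, 12.9 and 11.4 TPM with miR-322/-503, and replicate 1 was the highest. The log2 fold change was 0.07 (adjusted p = 0.72 in edgeR), with a 95% interval from 0.866 to 1.27 times the control. Without miR-322/-503 replicate 1 it was 0.20 (adjusted p = 0.0866), and with limma on log2(TPM + 1) it was 0.24 (adjusted p = 0.129), neither past the test. Igf1r, the receptor of both IGF ligands, stood at 43.7, 44.9 and 43.5 CPM in the control and at 36.1, 39.5 and 36.1 CPM with miR-322/-503. The groups did not overlap, and the log2 fold change was -0.24 (SE 0.07, adjusted p = 0.0299). This call rested on all 6 libraries: in 5 of the 6 fits that each left out 1 library it did not pass, with adjusted p up to 0.0991, and it passed only without miR-322/-503 replicate 2 (adjusted p = 0.0305). With limma on log2(TPM + 1) it did not pass either (adjusted p = 0.167).

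Irs1, a docking protein of the activated insulin and IGF1 receptors (chr1:82233101-82291416), moved the opposite way from its relative Irs2. Irs1 stood at 203, 199 and 205 CPM in the control and at 294, 270 and 282 CPM with miR-322/-503, a log2 fold change of 0.48 (SE 0.06, adjusted p = 0.00078 in edgeR). Irs2 stood at 11.6, 13.6 and 14.6 CPM in the control and at 4.99, 4.88 and 3.58 CPM with miR-322/-503, a log2 fold change of -1.57 (SE 0.16, adjusted p = 0.000356). Neither gene's groups overlapped. Irs1 was the higher of these in each group, with 42.0 ± 0.818 TPM in the control and 57.9 ± 3.56 TPM with miR-322/-503, where Irs2 had 3.99 and 1.33 TPM.

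Igfbp5, the most abundant binding protein here and one that is known to be secreted by differentiating myoblasts (chr1:72857932-72874884), was the highest of the 10 genes in TPM in every library. It stood at 1938, 2304 and 2122 CPM in the control and at 6745, 7758 and 7364 CPM with miR-322/-503. Each miR-322/-503 library was above every control library, with a level 3.44 times that of the control (95% interval 3.02 to 3.90, log2 fold change 1.78, SE 0.08, adjusted p = 6.54e-06 in edgeR). Ranked by mean TPM among all genes, Igfbp5 went from place 176 in the control to place 35 with miR-322/-503.

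Igfbp2, an abundant binding protein of fetal tissues, lies next to Igfbp5 (chr1:72824503-72852474). The genes point toward each other, with 5457 bases between their annotated ends, and share no exon. Igfbp2 stood at 47.8, 61.3 and 60.2 CPM in the control and at 184, 206 and 218 CPM with miR-322/-503. The rise was of nearly the same size as that of Igfbp5, at 3.59 times the control (95% interval 2.99 to 4.32, log2 fold change 1.84, SE 0.11, adjusted p = 2.93e-05 in edgeR).

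Igfbp4, known mainly as an inhibitor of IGF action and as a substrate of PAPP-A (chr11:99041244-99054392), was the lowest of the 6 in TPM in both groups. It stood at 9.35, 6.98 and 7.71 CPM in the control and at 19.4, 18.7 and 31.4 CPM with miR-322/-503. Replicate 3 of the miR-322/-503 group stood apart from the others of its group, and all 3 were above the control. The log2 fold change was 1.53 (SE 0.22, adjusted p = 0.00193 in edgeR), and 1.25 without that replicate (adjusted p = 0.00175).

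Igfbp6, which prefers Igf2 over Igf1 as its ligand (chr15:102144362-102149511), rose the least of the binding proteins that rose. It stood at 146, 161 and 148 CPM in the control and at 203, 205 and 203 CPM with miR-322/-503 (log2 fold change 0.42, SE 0.06, adjusted p = 0.0016 in edgeR). The SD over the miR-322/-503 libraries was 1.05 CPM (n = 3), and all of them lay above the control.

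Igfbp7, a relative of the family that binds IGFs weakly and is known as a matrix protein of vessels (chr5:77349240-77408041), was the only one of the 6 that fell. It stood at 193, 161 and 158 CPM in the control and at 73.9, 94.98 and 99.02 CPM with miR-322/-503. The groups were separate, although control replicate 1 was above and miR-322/-503 replicate 1 below the others of their groups. The log2 fold change was -0.93 (SE 0.13, adjusted p = 0.00143 in edgeR). Of the fits that each left out 1 library, it passed -1 only without miR-322/-503 replicate 3, at -1.01. An exon of Igfbp7 overlaps an exon of Polr2b on the opposite strand. Since no source used here says that the counting used strand, reads there cannot be assigned with certainty, and the log2 fold change of Polr2b was 0.04 (edgeR adjusted p = 0.669).

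Igfbp3, the main carrier of IGFs in serum (chr11:7206086-7213923), stood at 49.3, 56.4 and 53.3 CPM in the control and at 42.4, 53.0 and 53.1 CPM with miR-322/-503. Here 2 of the 3 miR-322/-503 libraries lay within the control range. The log2 fold change was -0.10 (adjusted p = 0.531 in edgeR), with a 95% interval from 0.791 to 1.10 times the control. Igfbp1, the remaining classical binding protein and a liver gene, had no counts in any library.

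The 6 binding protein genes were then summed per library in TPM. The sum was 1319, 1400 and 1323 TPM in the control and 2960, 3377 and 3062 TPM with miR-322/-503, a ratio of 2.32 between the group means. Igfbp5 made up most of the increase. Its share of the sum was 47.1%, 51.7% and 50.5% in the control and 73.0%, 73.4% and 71.6% with miR-322/-503. Without Igfbp5, the sum was 677 ± 21.4 TPM in the control and 855 ± 51.5 TPM with miR-322/-503 (SD, n = 3). The share of Igfbp7 was 20.99 ± 2.98% and 4.64 ± 0.435%, and that of Igfbp6 was 19.2 ± 0.255% and 10.99 ± 0.783%, although the level of Igfbp6 itself rose. Igfbp2 held 6.55 ± 0.699% and 10.02 ± 0.75%, and Igfbp3 and Igfbp4 together stayed below Igfbp2 in every library. Since the sum rose and Igf1 fell, the sum of binding protein TPM per TPM of Igf1 was 43.2, 54.7 and 44.2 in the control and 351, 433 and 231 with miR-322/-503. These are ratios of transcripts, and no protein was measured. The sums and shares were not tested, since they combine the same genes tested above.

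**Figure D2:**
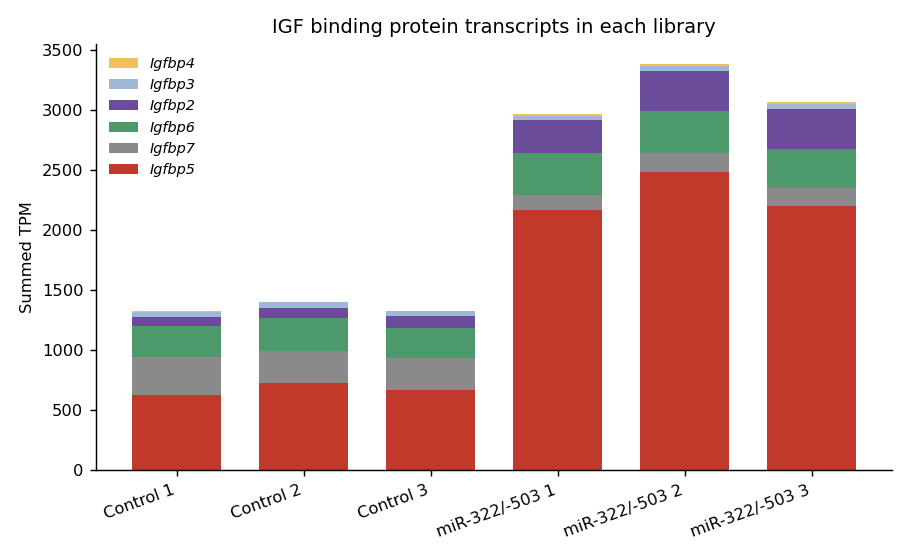
Summed TPM of the 6 IGF binding protein genes in each of the 6 libraries, as stacked bars from 0, 1 color per gene. The bars reach 1319 to 1400 TPM in the control and 2960 to 3377 TPM with miR-322/-503, and the Igfbp5 segment holds 47.1% to 51.7% and 71.6% to 73.4% of them.

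Ordered by mean TPM, the control line expressed Igfbp5 (671 ± 51.9), Igfbp7 (282 ± 34.3), Igfbp6 (259 ± 12.2), Igfbp2 (88.2 ± 9.09), Irs1 (42.0 ± 0.818), Igfbp3 (41.7 ± 2.44), Igf2r (37.7 ± 0.274), Igf1 (28.7 ± 2.68), Insr (10.4 ± 0.395) and Igfbp4 (5.02 ± 0.76), each with its SD over 3 libraries. The ranges of Igfbp7 and Igfbp6 overlapped, as did those of Irs1 and Igfbp3, and the other neighbors in this order were separate. With miR-322/-503, the order was Igfbp5 (2278 ± 174), Igfbp6 (344 ± 15.4), Igfbp2 (314 ± 32.3), Igfbp7 (146 ± 19.2), Irs1 (57.9 ± 3.56), Igfbp3 (38.4 ± 4.17), Igf2r (27.0 ± 0.313), Igfbp4 (13.9 ± 3.05), Insr (12.5 ± 1.001) and Igf1 (9.82 ± 2.98). In this group Igfbp6 overlapped with Igfbp2, Igfbp4 with Insr, and Insr with Igf1. Igf1 thus moved from above Insr, with no overlap, to the last place. The spread of Igf1 in TPM was wider than in CPM, with 8.43, 7.79 and 13.2 TPM in the miR-322/-503 libraries.

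Beyond these 10 genes, 13 genes of the extracellular IGF axis were listed, of which 10 were tested, 5 fell, 3 rose and 2 did not pass, beside 15.5% of all tested genes that fell and 13.2% that rose. Their median log2 fold change was -0.67. The fallen genes were Igf2, Igf1r, Pappa, Stc1 and Kazald1, and all but Igf1r were called beyond a log2 fold change of -1, as were 5.29% of all tested genes. Pappa encodes PAPP-A, the protease of Igfbp4 and Igfbp5. It stood at 7.39, 8.60 and 10.1 CPM in the control and at 3.05, 2.11 and 3.27 CPM with miR-322/-503 (log2 fold change -1.63, adjusted p = 0.00089 in edgeR), and with limma on log2(TPM + 1), a scale that shrinks the change of low genes, it was at -0.75 and no longer beyond -1. Stc1, a stanniocalcin that inhibits PAPP-A, fell from 188 ± 42.6 to 54.8 ± 5.68 CPM (SD, n = 3, log2 fold change -1.78, adjusted p = 0.000203 in edgeR). The 16 other tested genes within 1 Mb of Stc1 had a median log2 fold change of -0.58, and 11 of them were below 0. The 30 around Igf2 had a median of 0.55, with 7 below 0, the 33 around Kazald1 a median of 0.14, and the 2 around Pappa a median of -0.17. Kazald1, a secreted protein with an IGF binding domain, fell by 1.90 on the log2 scale (edgeR adjusted p = 0.000113). Among those that rose, which are named here after their values were seen, Htra1, a secreted serine protease that cuts binding proteins, went from 125 ± 2.04 to 178 ± 2.18 CPM (log2 fold change 0.51, adjusted p = 0.000279 in edgeR). Pappa2, a relative of PAPP-A, and Stc2 had log2 fold changes of 0.88 and 0.40, with adjusted p of 0.044 and 0.042. Pappa2 did not pass without control replicate 1, without control replicate 2, without miR-322/-503 replicate 1 or without miR-322/-503 replicate 3 (adjusted p up to 0.133). Stc2 passed without miR-322/-503 replicate 1 and lost the call without any other single library (adjusted p up to 0.131), as well as with the replicate number as a block (adjusted p = 0.0663). Insrr, Igfbp1 and Igfbpl1 had no counts in any library.

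**Figure D3:**
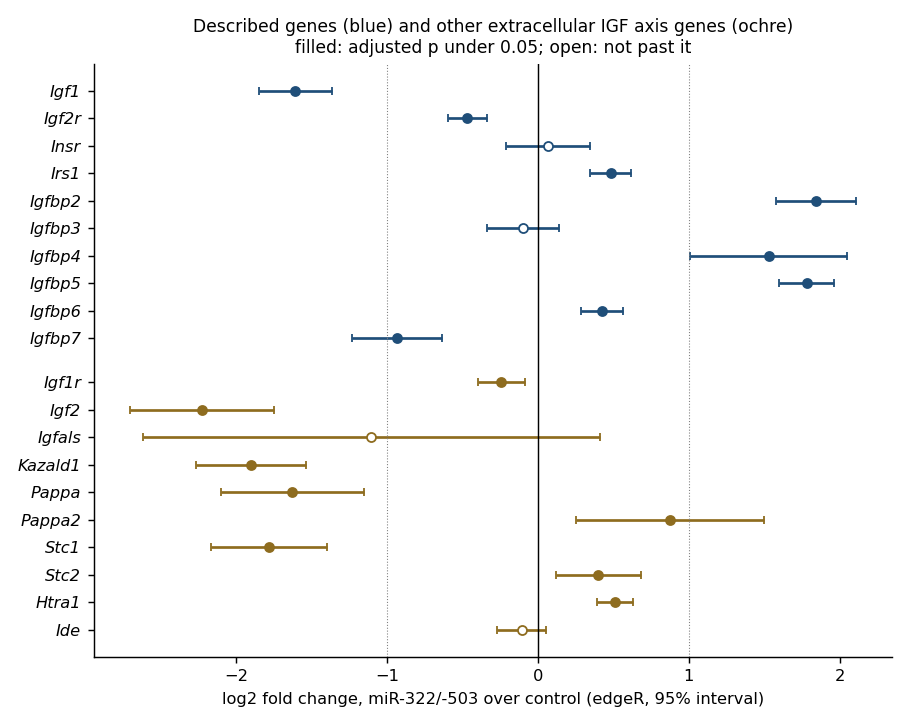
Log2 fold changes of miR-322/-503 over control with 95% intervals from edgeR, for the 10 described genes (blue) and 10 other tested genes of the extracellular IGF axis (ochre), with filled points past an adjusted p of 0.05 and dotted lines at -1 and 1. Igfbp2, Igfbp4 and Igfbp5 lie right of 1, and Igf1, Igf2, Kazald1, Pappa and Stc1 lie left of -1, as does Igfals, which did not pass the test.

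Of 56 genes of insulin and IGF signal transduction, 55 were tested, of which 9 rose, 14 fell and 32 did not pass, where 13.2% of all tested genes rose and 15.5% fell. The count that rose was 5 without miR-322/-503 replicate 3 and 4 with limma on log2(TPM + 1). The median log2 fold change was 0.07. Called beyond a log2 fold change of 1 in either direction were 5 of the 55, a share near the 9.87% of all tested genes, so these calls are no result about the list. The 4 below -1 were Irs2, Gab1, Sgk1 and Socs3. Sgk1, a kinase activated through PI3K, stood at 79.8, 75.0 and 79.5 CPM in the control and at 24.1, 26.8 and 26.9 CPM with miR-322/-503 (log2 fold change -1.59, SE 0.07, adjusted p = 5.77e-06 in edgeR). Gab1, a docking protein that recruits PI3K, fell from 62.6 ± 1.04 to 29.9 ± 2.005 CPM (SD, n = 3, log2 fold change -1.07, edgeR adjusted p = 3.47e-05). The 7 other tested genes within 1 Mb of Gab1, on chromosome 8, had a median log2 fold change of -0.58, and 5 of them were below 0, while the medians around Sgk1, Irs2 and Socs3 were 0.22, 0.08 and -0.01. Socs3 itself, an inhibitor of cytokine receptors that can also bind the insulin receptor, had a log2 fold change of -1.79 (edgeR adjusted p = 7.31e-05). Grb10, an adaptor that inhibits both receptors, was at 1.77, from few reads: the control libraries held 5, 12 and 10 estimated counts, the miR-322/-503 libraries 31, 23 and 38. It passed in the fit of all 6 libraries (adjusted p = 0.0346 in edgeR), in none of the fits that left out 1 library (adjusted p up to 0.132), and not with the replicate number as a block (adjusted p = 0.066).

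**Figure D4:**
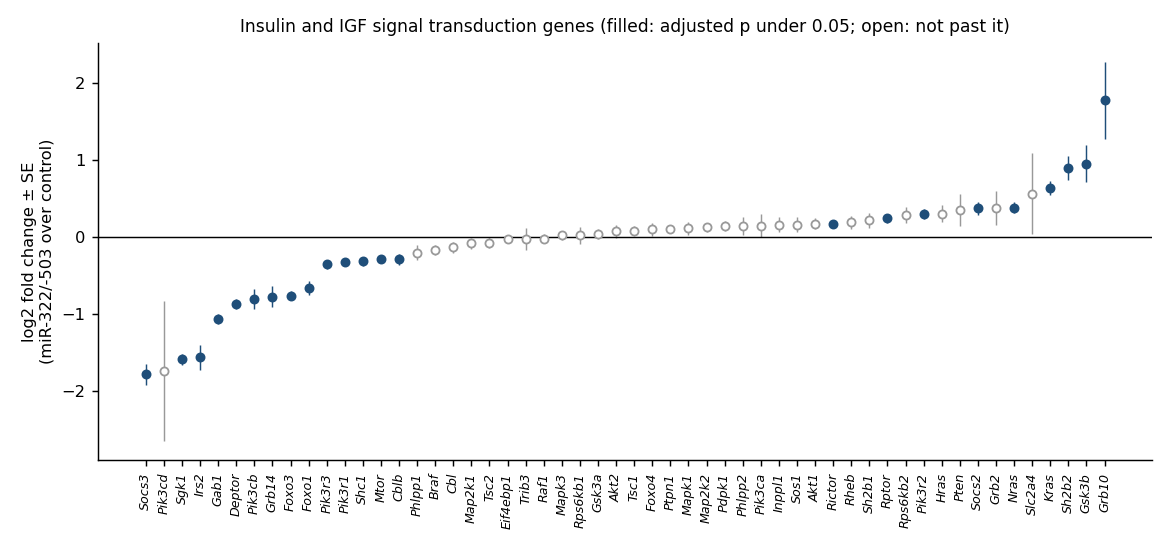
Log2 fold changes of miR-322/-503 over control, with standard errors, of the tested genes of insulin and IGF signal transduction in ascending order, except 1 that is not reported here, filled where the adjusted p was under 0.05. Most points lie between -1 and 1, with Socs3, Sgk1, Irs2 and Gab1 past the test below -1, Grb10 past the test above 1, and Pik3cd below -1 but not past the test.

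To see whether the genes around them moved alike, each of the 10 genes was set beside the other tested genes within 1 Mb. For Igfbp2 and Igfbp5, the 13 neighbors had a median log2 fold change of -0.05. Besides each other, only March4 came near them, with 2.005, and it did not pass the test (adjusted p = 0.0566 in edgeR). The closest other neighbor, Rpl37a, was at -0.10. Around Igf1, 17 genes had a median of -0.34, and 16 of them had a higher log2 fold change than Igf1. Most of them were below 0, and those that passed in edgeR were all lower. These were Parpbp (-1.10), Nup37 (-0.59), Arl1 (-0.43), Gnptab (-0.33) and Washc3 (-0.26), and no neighbor of Igf1 passed upward. Whether this shift of the region has a part in the fall of Igf1 was not tested. All 13 neighbors of Igfbp7 were above it, with a median of 0.13. For Igf2r, 22 of 23 neighbors were above it, and their median was 0.18. Of the 34 neighbors of Igfbp4, 31 were below it, with a median of 0.07. Around Irs1 and Igfbp6 the medians were 0.16 and -0.16, and around Insr and Igfbp3, which did not pass the test, they were 0.05 and 0.07.

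**Figure D5:**
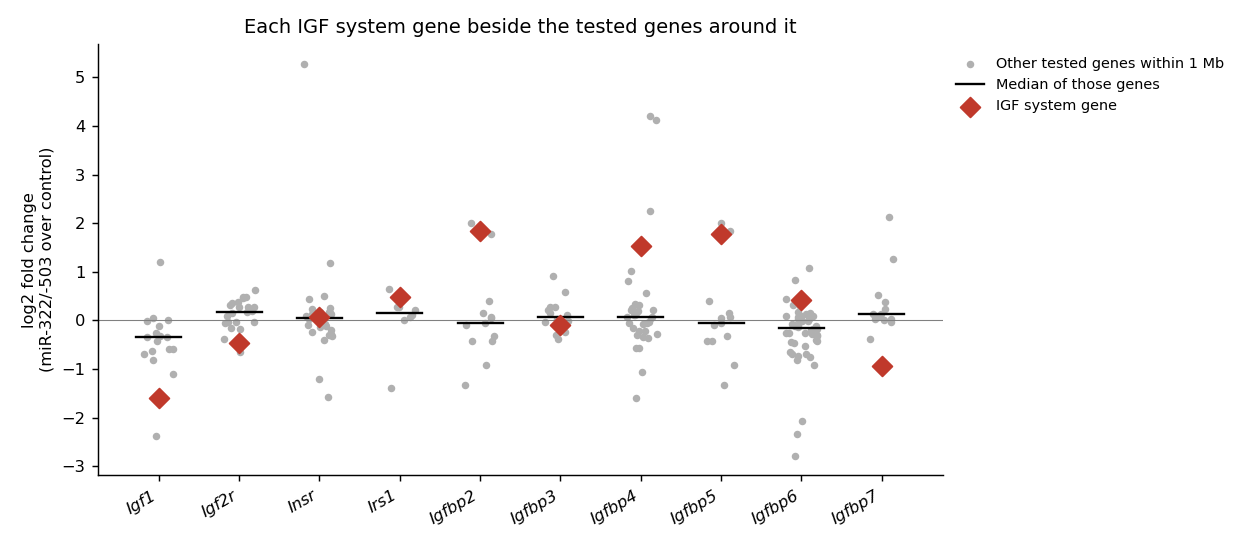
Log2 fold change of miR-322/-503 over control for each of the 10 IGF system genes (red diamond), for the other tested genes within 1 Mb (gray points) and for the median of the latter (black line). The medians lie between -0.34 for Igf1 and 0.18 for Igf2r, and the diamonds of Igfbp2, Igfbp4, Igfbp5, Igf1 and Igfbp7 lie far from them.

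Finally, the genes with the most similar course over the 6 libraries were sought for Igf1 and Igfbp5, among the 9664 genes whose mean reached 10 CPM, by the Euclidean distance of log2 CPM relative to the control mean. Among the 3 nearest to Igf1 were Adamts5 (distance 0.13) and Unc5c (0.18), with log2 fold changes of -1.58 and -1.55. Nearest to Igfbp5 were Trim55 (0.20), Igfbp2 (0.21) and the pseudogene Mylf-ps (0.23), with log2 fold changes of 1.88, 1.84 and 1.78. The distances mostly reflect the size of the group difference, since they rest on 2 groups of 3 libraries.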

How the data were processed

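Gene expression was measured by RNA-seq in 3 control and 3 miR-322/-503 libraries, grouped by the sample titles. The authors trimmed reads (Trim-Galore), mapped them onto GRCm38 (Hisat2) and made read count tables (Stringtie); versions and annotation are not given in the sources used here. The deposited matrix holds estimated counts as whole numbers, and the deposited table of each library holds coverage per base, FPKM and TPM by the authors; coverage served only to check the scale of the counts and FPKM was not used. In genes with 1 transcript, 1 estimated count stood for about 75.0 covered bases, while 300 covered bases was the commonest value, so a read pair entered as about 4 counts and the libraries correspond to between 18383021 and 23039347 read pairs. Precision is therefore lower than the counts alone would give, and the tests take their error from the spread between libraries.

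Counts were tested with edgeR 4.0.16 (filterByExpr, TMM, glmQLFit, glmQLFTest, Benjamini-Hochberg over all 18140 tested genes) in R 4.3.3, and the SE is the log2 fold change divided by the square root of F. TPM was summed per gene identifier. Of the 55421 identifiers, 55154 were found in GENCODE M21, from which 3′UTRs (longest, protein coding) were taken. Chi-square values between replicates of a group were computed on counts divided by 4, that is, per read pair. Divided by their degrees of freedom they were 13.6 to 19.6, far above what counting noise alone would give. The scripts were tested on simulated data. With an absolute log2 fold change of 1, edgeR recovered 54 of 100 changed genes, and 40 of the 42 that reached 10 CPM. Changes of this size in genes below that level were thus often missed.

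The 10 genes and all lists were chosen with earlier results of these data known. Named were the 10 genes, Igf1r, Igf2, Irs2 and Igfbp1, the listed pathway genes past the test with an absolute log2 fold change over 1, 4 muscle markers, and the 3 nearest genes to Igf1 and to Igfbp5; any other gene was named after its values were seen. Some genes that these rules or lists hold are not reported here. Alternatives were DESeq2 1.42.0, other normalizations and filters, limma 3.58.1 on log2(TPM + 1) and log2(TPM + 0.1), glmTreat, a replicate block and leaving out each library, and, added after seeing the data, counts per read pair.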

Additional observations from a re-analysis of the deposited data

How the results depend on the processing

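All 8 IGF system genes that passed the test kept their direction and stayed past it under each of the 15 alternatives computed for single genes. Without miR-322/-503 replicate 3, Insr changed sign (-0.000503), and without miR-322/-503 replicate 1, Igfbp3 did (0.00523); leaving out single libraries gave -0.000503 to 0.20 for Insr and -0.15 to 0.00523 for Igfbp3, neither past the test. For Insr, limma gave 0.24 and 0.26 at the pseudocounts of 1 and 0.1. With 1 library left out at a time, 5 of the 10 genes were higher and 3 lower each time, and 1 to 2 were called beyond -1. With glmTreat, 2 were called higher, against 3. The other extracellular genes had 1 to 2 higher and 4 to 5 lower in these fits, with 0 to 1 beyond a log2 fold change of 1, and the signal transduction genes had 5 to 8 higher and 13 to 14 lower, with 0 to 1 beyond 1. Against 3 in the main result, 1 extracellular gene was higher without a filter and with limma at either pseudocount. With limma on log2(TPM + 1), 3 extracellular genes were called below -1, against 4, since Pappa was at -0.75. With limma, 4 signal transduction genes were higher, against 9. Grb10, the 1 gene of that list beyond 1, was not called (0) with DESeq2, without a filter, with limma, with glmTreat or with the replicate block, and was not tested where 10 counts were required per library or counts were divided to read pairs (0); the cause was not tested otherwise. It passed in no fit that left out a library, so the 1 gene called in some of those was another. The binding protein sum had a log2 ratio of 1.22 between the group means (1.16 to 1.26 without 1 library) and 1.62 as summed CPM, which by construction gives long transcripts such as Igfbp5 more weight.

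The replicate numbers were not taken as pairs. Deviations of same-numbered libraries from their group means correlated at 0.241, 0.137 and 0.096, and only the first and second exceeded 0.1, although all 6 libraries correlated best with their own number, a hint from the data and not from the design. With the replicate block, 5 of the 10 genes were higher and 3 lower, as without it, and of the other extracellular, signal transduction and Igf2 mRNA binding genes named with a call, Grb10 and Stc2 lost theirs. The block was not run for the marker genes or, Igfbp2 aside, for the genes nearest to Igf1 and Igfbp5. A window of 3 Mb in place of 1 Mb moved the median of neighbors by at most 0.17, that of Igf1 from -0.34 to -0.17.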
